A study of Mus musculus with 23 samples.

Results

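GABA is the main inhibitory transmitter of the hippocampus, and the 8 genes described here make it, load it, clear it or sense it. They were taken by name from 39017 genes measured in the mouse hippocampus and are Gad1, Gad2, Slc32a1, Slc6a11, Abat, Gabbr1, Gabbr2 and Gphn. Each name matched a single row, and all 8 passed the filter on low values used below. GABA neurons convert glutamate into GABA with the glutamate decarboxylases, encoded by Gad1, which supplies most of the basal pool, and Gad2, which sits on membranes at nerve terminals. The vesicular transporter (Slc32a1) then packs GABA into synaptic vesicles. After release, astrocytes take GABA up through the transporter encoded by Slc6a11, and the mitochondrial transaminase encoded by Abat breaks it down. Slow inhibition runs through the GABA-B receptor, a pair of subunits in which the Gabbr1 product binds GABA and the Gabbr2 product couples to the G protein. Gphn encodes gephyrin, the scaffold that holds GABA-A and glycine receptors under inhibitory terminals and also makes the molybdenum cofactor.

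Hippocampal RNA came from mice labelled as knockout (KO) of Nrsn2, a gene for a small neuronal membrane protein, and from wild-type (WT) mice, each either after chronic social defeat stress (CSDS) or as controls. In CSDS a mouse met a new aggressive CD-1 resident for 5 min on each of 10 days and lived beside it behind a perforated divider for the rest of the day. The groups were KO-labelled CSDS, KO-labelled control, WT CSDS and WT control, with 5 libraries each. The sources used here do not give strain, age, the Nrsn2 allele or the housing of controls. No label says outright that each library is 1 mouse. A further 3 libraries (KO-labelled 11, KO-labelled 10B and WT 9B) entered no group, because their titles say control and their treatment field says CSDS. The design text counts 5 controls with 6 or 7 after CSDS, which are the numbers of libraries the treatment field gives (7 KO-labelled and 6 WT) and would be met by 1 library per mouse, while the authors' deposited control means average these libraries with the controls.

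Estimated depth ran from 25.7 to 55.7 M reads per library, and each of the 8 genes was covered by between about 1166 reads (lowest library of Slc32a1) and 30150 reads (highest library of Gabbr1). The knockout label had no counterpart in the RNA. Nrsn2 stood at 34.1 ± 2.34 RPKM in KO-labelled CSDS libraries, 31.2 ± 1.93 in KO-labelled controls, 29.7 ± 2.55 in WT CSDS and 29.1 ± 2.42 in WT controls (SD, n = 5 each), so libraries are called KO-labelled throughout, and every direction between genotypes rests on that label. Control 10 of either genotype had high Xist and low Ddx3y, the pattern of a female, and no CSDS library did. Markers of hippocampal pyramidal and granule cells were present in every group, with Neurod6 at group means of 66.6 to 72.9 RPKM and Prox1 at 11.3 to 12.9 RPKM.

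The genes lie on 6 chromosomes, and all coordinates are in mm10. Gad1 spans chr2:70553072-70602014, Gad2 chr2:22622205-22693874 and Slc32a1 chr2:158610767-158615748, all on the plus strand of chromosome 2. Slc6a11 (chr6:114131241-114249952), Abat (chr16:8513429-8621568), Gabbr1 (chr17:37045966-37075067) and Gphn (chr12:78226379-78684772) also lie on the plus strand, and Gabbr2 (chr4:46662305-46991873) on the minus strand. The libraries do not keep strand, and 697 exon bases of Slc32a1 (24.9% of its exon length) are shared with the antisense RNA Gm14205, so reads of that stretch cannot be assigned to either. Gphn shares 3.92% of its exon length with another antisense RNA, and the remaining genes share no exon with a neighbour.

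Promoters of the genes that moved are shown here because Gad1, Gad2 and Slc32a1 were higher together after defeat in KO-labelled libraries, while Gabbr2 was the gene that fell in WT. Each is RefSeq sequence of GRCm38.p6 from 250 bases before to 50 bases after the start annotated there, written 5′ to 3′ on the strand of the gene. That start need not be the first base of the span given above, and the Gad1 window lies wholly inside its span. Capitals mark a match to the GC box GGGCGG or to the core of the cyclic AMP response element TGACG, on either strand.
Gad1 (chr2:70561879-70562178): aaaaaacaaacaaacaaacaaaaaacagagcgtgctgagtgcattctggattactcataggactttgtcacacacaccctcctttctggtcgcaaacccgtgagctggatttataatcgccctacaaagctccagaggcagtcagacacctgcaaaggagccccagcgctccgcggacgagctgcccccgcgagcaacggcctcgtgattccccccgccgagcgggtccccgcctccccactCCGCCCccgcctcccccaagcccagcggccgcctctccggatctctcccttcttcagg
Gad2 (chr2:22622077-22622376): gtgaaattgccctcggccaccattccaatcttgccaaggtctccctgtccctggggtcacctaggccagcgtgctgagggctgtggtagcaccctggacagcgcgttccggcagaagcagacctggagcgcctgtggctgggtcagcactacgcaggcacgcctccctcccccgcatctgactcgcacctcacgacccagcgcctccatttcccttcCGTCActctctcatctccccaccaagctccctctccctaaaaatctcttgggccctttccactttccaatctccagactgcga
Slc32a1 (chr2:158610508-158610807): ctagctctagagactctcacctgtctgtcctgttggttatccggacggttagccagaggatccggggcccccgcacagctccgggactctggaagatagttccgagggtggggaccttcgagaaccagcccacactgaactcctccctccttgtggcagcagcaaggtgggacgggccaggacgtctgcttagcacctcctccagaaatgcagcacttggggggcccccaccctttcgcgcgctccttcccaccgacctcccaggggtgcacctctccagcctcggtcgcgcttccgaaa
Gabbr2 (chr4:46991665-46991964): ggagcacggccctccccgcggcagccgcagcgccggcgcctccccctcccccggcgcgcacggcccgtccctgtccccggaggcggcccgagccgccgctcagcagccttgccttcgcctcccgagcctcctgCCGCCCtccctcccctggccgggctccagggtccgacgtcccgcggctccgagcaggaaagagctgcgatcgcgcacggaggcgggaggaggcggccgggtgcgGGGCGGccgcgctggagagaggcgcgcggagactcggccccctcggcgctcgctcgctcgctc
Of the 8 genes, 7 had a promoter in the RefSeq table, and Abat, which also rose in KO-labelled libraries, had none. The GC box was present in 5 of these 7 and in 35.7% of 32851 mouse promoters of the same length. The Gad1 window held 1 GC box, starting 8 bases before the start, and the Gabbr2 window held 2. The Gad2 window held the only TGACG among the 7, which 20.8% of all promoters contain. The full element TGACGTCA, which contains TGACG, was in 0 of the 7 and in 1.79% of all promoters. The homeobox core TAATTA (5.29% of all promoters) and the E-box CACGTG (7.15%) were also in 0 of the 7, and the Slc32a1 window held no match to any of the 5 motifs. Base composition varied among the windows. The Gabbr2 window was 80.3% G or C with 46 CG pairs, against 60.0% with 21 pairs for Gad1, 61.3% with 14 for Gad2 and 63.3% with 17 for Slc32a1. The other receptor gene, Gabbr1, had 67.3% with 18 pairs, and Gphn had 77.0% with 42. The median over all promoters was 52.7% with 7 pairs.

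The order of the levels was the same in all 4 groups. RPKM counts reads per kilobase of gene, scaled to library size, so levels can be set side by side between genes. Over the 20 grouped libraries the mean level was 71.7 RPKM for Gabbr1, 45.5 for Gabbr2, 37.9 for Gad1, 34.3 for Abat, 31.5 for Slc6a11, 24.9 for Gad2, 21.8 for Gphn and 19.1 for Slc32a1. Gabbr1, the most abundant, lay above 95.6% of the genes tested, and Slc32a1, the least abundant, above 80.6%. Neighbours in this order were seldom exchanged within a library. Gabbr1 exceeded Gabbr2 in 20 of 20 libraries, and Slc6a11 exceeded Gad2 in 20 of 20. The order was least firm between Gphn and Slc32a1, where Gphn was the higher gene in 16 of 20 libraries, and between Gabbr2 and Gad1, where Gabbr2 was higher in 17 of 20. Gad2 exceeded Gphn, Gad1 exceeded Abat and Abat exceeded Slc6a11 in 19 of 20 libraries each.

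**Figure D1:**
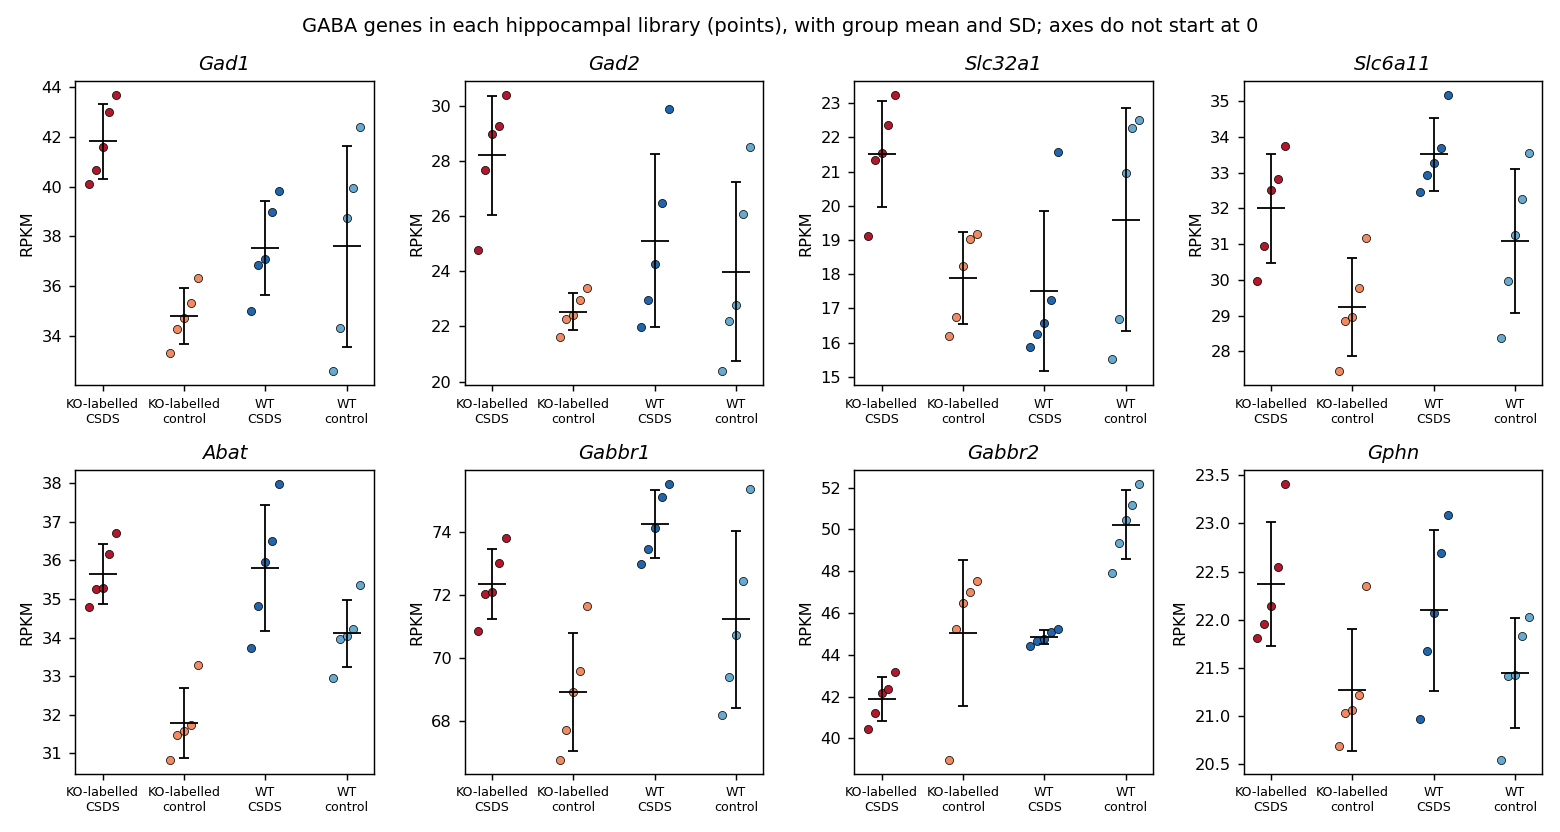
Level of each of the 8 genes in RPKM (vertical axis, which does not start at 0) in every library (points), with group mean and SD (line and bar, n = 5 libraries per group). Gad1, Gad2 and Abat in KO-labelled CSDS libraries lie above all KO-labelled controls, and Gabbr2 in WT CSDS libraries lies below all WT controls.

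Defeat in KO-labelled mice was accompanied by more RNA for making and packing GABA. Gad1, Gad2, Slc32a1 and Abat rose by 12.1 to 25.2% in mean RPKM. Slc6a11, Gabbr1, Gabbr2 and Gphn did not pass the test, and no member was called lower. Gabbr2 averaged lower without passing (−7.06% in mean RPKM). Thus 4 of 8 members were called, where 15.0% of all 18259 genes tested were called in either direction and 6.17% were called higher (limma, Benjamini-Hochberg adjusted p under 0.05). The median log2 fold change of the 8 was 0.15, beside −0.0067 over all genes. RPKM of whole tissue cannot tell more RNA per cell from more cells of a type.

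Gad1 had 43.7, 43.0, 41.6, 40.7 and 40.1 RPKM in the KO-labelled CSDS libraries, against 36.3, 34.7, 34.3, 35.3 and 33.3 RPKM in the KO-labelled controls. Every defeated library lay above every control, and the mean was 20.1% higher (log2 fold change 0.26 ± 0.033 SE, adjusted p = 0.00128). Gad2, the decarboxylase at nerve terminals, had 29.2, 30.4, 29.0, 27.7 and 24.8 RPKM after CSDS, against 22.96, 22.4, 22.3, 23.4 and 21.6 RPKM in controls. These groups were also apart, with the controls spanning less than the defeated libraries, and Gad2 had the largest fold change of the 8 (0.31 ± 0.050, adjusted p = 0.0036). Slc32a1, the vesicular transporter, had 21.5, 22.4, 23.2, 21.3 and 19.1 RPKM after CSDS, against 19.0, 16.2, 16.8, 18.2 and 19.2 RPKM in controls. CSDS library 5 lay just under the highest control, and the other 4 lay above all controls (0.26 ± 0.060, adjusted p = 0.0179). The antisense RNA Gm14205, which shares its exons, had a log2 fold change of 0.15 ± 0.071 (adjusted p = 0.18).

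On the clearing side, Abat had 36.2, 35.3, 35.3, 36.7 and 34.8 RPKM after CSDS, against 33.3, 31.5, 31.7, 30.8 and 31.6 RPKM in KO-labelled controls. The groups did not overlap, and the mean was 12.1% higher (0.16 ± 0.027, adjusted p = 0.00433). Slc6a11, the astrocyte transporter, had 32.8, 33.7, 30.0, 32.5 and 30.9 RPKM after CSDS, against 31.2, 29.8, 29.0, 27.4 and 28.9 RPKM in controls. The defeated libraries averaged higher, with 3 of 5 above all controls, and the difference missed the threshold (0.13 ± 0.041, adjusted p = 0.0593). It passed under 5 of 20 alternatives, among them the fit over all 4 groups (adjusted p = 0.0427), quantile normalization (0.0442) and leaving out KO-labelled control 6 (0.0411) or CSDS 3 (0.0381). In the authors' deposited table, whose control mean includes KO-labelled 11 and 10B, Slc6a11 passed with a false discovery rate of 0.0305. The 3 genes whose groups were apart, Gad1, Gad2 and Abat, compare with 5.45% of all genes tested that were higher with no overlap (7.46% were lower).

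The receptor subunits and the scaffold did not pass the test in KO-labelled libraries. Gabbr1 had 73.0, 73.8, 70.9, 72.1 and 72.0 RPKM after CSDS, against 69.6, 71.6, 68.9, 67.7 and 66.8 RPKM in KO-labelled controls (0.07 ± 0.025, adjusted p = 0.0895). Gabbr2 had 42.2, 40.5, 41.2, 43.2 and 42.3 RPKM after CSDS, against 46.5, 47.5, 45.3, 47.0 and 39.0 RPKM in controls. All 5 defeated libraries were lower than 4 of the 5 controls, and control 10 was lower than all of them (−0.10 ± 0.051, adjusted p = 0.207). Without that control the fold change of Gabbr2 was −0.15 with an adjusted p of 0.00445. Gphn had 21.8 to 23.4 RPKM after CSDS and 20.7 to 22.3 RPKM in controls, with a fold change of 0.07 ± 0.029 (adjusted p = 0.127).

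The 4 calls held when any 1 of the 10 libraries was left out. They depended on the label of the conflicting libraries, since counting KO-labelled 11 and 10B as CSDS, as the treatment field has them, left 0 of 8 members called, with adjusted p-values of 0.0886 for Gad1, 0.0891 for Gad2, 0.0791 for Slc32a1 and 0.206 for Abat. Slc32a1 also missed the threshold in a fit over all 4 groups (adjusted p = 0.0716). With KO-labelled 11 and 10B counted as controls, as their titles have them, the 4 calls held and Slc6a11 passed too (adjusted p = 0.0337). The authors' deposited table, which counts them so, gave edgeR false discovery rates of 2e-05 for Gad1, 0.000464 for Gad2, 0.0284 for Slc32a1 and 2.67e-05 for Abat.

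In WT mice Gabbr2 fell after defeat, and the genes of GABA synthesis did not pass the test. Gabbr2 alone of the 8 was called. This is no larger a share than among all 18274 genes tested, of which 22.4% were called in either direction and 12.5% were called lower. The median log2 fold change of the 8 was 0.05, beside −0.0017 over all genes.

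Gabbr2 had 45.1, 44.8, 44.6, 45.3 and 44.4 RPKM in WT CSDS libraries, against 52.2, 50.4, 49.4, 51.2 and 47.9 RPKM in WT controls. Every defeated library lay below every control, the defeated libraries spanned less than 1 RPKM, and the mean was 0.893 times that of controls (−0.16 ± 0.024, adjusted p = 0.00181). Groups with no overlap were found on the lower side for 9.65% of all genes tested and on the higher side for 7.49%. The fall of Gabbr2 held without any 1 library and missed the threshold with WT 9B counted as CSDS (−0.13, adjusted p = 0.0711). In the authors' deposited table Gabbr2 was also called in WT, with a false discovery rate of 0.00251. Its partner Gabbr1 had 75.5, 74.1, 73.0, 73.5 and 75.1 RPKM after CSDS, against 75.4, 70.7, 68.2, 72.4 and 69.4 RPKM in WT controls. The groups overlapped through control 6 alone, which was higher than 4 of the 5 defeated libraries (0.06 ± 0.028, adjusted p = 0.146).

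Gad1 had 37.1, 39.8, 35.0, 36.9 and 39.0 RPKM in WT CSDS libraries, against 42.4, 39.9, 34.3, 38.7 and 32.6 RPKM in WT controls. The controls spanned the whole range of the defeated libraries, and the fold change was 0.0033 ± 0.068 (adjusted p = 0.976). Gad2 had 24.3, 29.9, 22.0, 22.9 and 26.5 RPKM after CSDS, against 28.5, 20.4, 22.2, 26.1 and 22.8 RPKM in controls (0.07 ± 0.10, adjusted p = 0.667). Slc32a1 had 15.9, 21.6, 16.3, 16.6 and 17.2 RPKM after CSDS, against 22.3, 22.5, 16.7, 21.0 and 15.5 RPKM in controls. CSDS library 2 stood apart from the other 4 defeated libraries, and the controls formed a higher 3 and a lower 2, so the mean difference of −0.15 ± 0.12 on the log2 scale was within the spread (adjusted p = 0.383). The spread of these 3 genes differed between the control groups, with a coefficient of variation of 3.01 to 7.50% among KO-labelled controls and 10.8 to 16.6% among WT controls.

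The genes of GABA clearance and the scaffold did not pass the test in WT, although their means were higher after CSDS. Slc6a11 had 32.9, 33.3, 35.2, 33.7 and 32.5 RPKM after CSDS, against 33.6, 32.3, 28.4, 31.3 and 30.0 RPKM in WT controls (0.11 ± 0.043, adjusted p = 0.0933). Abat had 36.5, 36.0, 33.7, 34.8 and 38.0 RPKM after CSDS, against 34.1, 35.4, 32.9, 34.0 and 34.2 RPKM in controls (0.07 ± 0.033, adjusted p = 0.16). Gphn had 21.0 to 23.1 RPKM after CSDS and 20.5 to 22.0 RPKM in controls (0.04 ± 0.030, adjusted p = 0.348). Leaving out WT control 6 brought Slc6a11 (adjusted p = 0.04) and Gabbr1 (adjusted p = 0.0461) past the threshold.

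The defeat effect itself was compared between genotypes by the interaction term of a fit over all 4 groups. The difference, KO-labelled effect minus WT effect, was above 0 for all 8 members, but 0 of 8 passed, where 0.148% of the genes tested did (0.0602% above 0 and 0.0876% below, 27 genes in all, with 2092 genes at an unadjusted p under 0.05). The median difference of the 8 was 0.08, beside −0.0043 over all genes. The share of all genes above 0 was not counted, and the 8 are not independent, since Gad1 and Slc32a1 varied together (r = 0.807). Slc32a1 had the largest difference, 0.41 ± 0.14 on the log2 scale, with a p of 0.00833 before adjustment and 0.239 after it in limma. Gad1 followed with 0.26 ± 0.079, a p of 0.00403 before adjustment and 0.191 after it, and Gad2 with 0.25 ± 0.12 (adjusted p = 0.436). Without WT control 10 the difference for Gad1 was 0.31 with an adjusted p of 0.0319, and without control 10 of both genotypes it was 0.29 with an adjusted p of 0.0557. The difference was 0.10 ± 0.042 for Abat (adjusted p = 0.383), 0.06 for Gabbr2 (0.737), 0.03 for Gphn (0.83), 0.02 for Slc6a11 (0.93) and 0.0096 for Gabbr1 (0.944). The fall of Gabbr2 is therefore not shown to be particular to WT, nor the rise of Gad1, Gad2, Slc32a1 and Abat to KO-labelled mice.

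**Figure D2:**
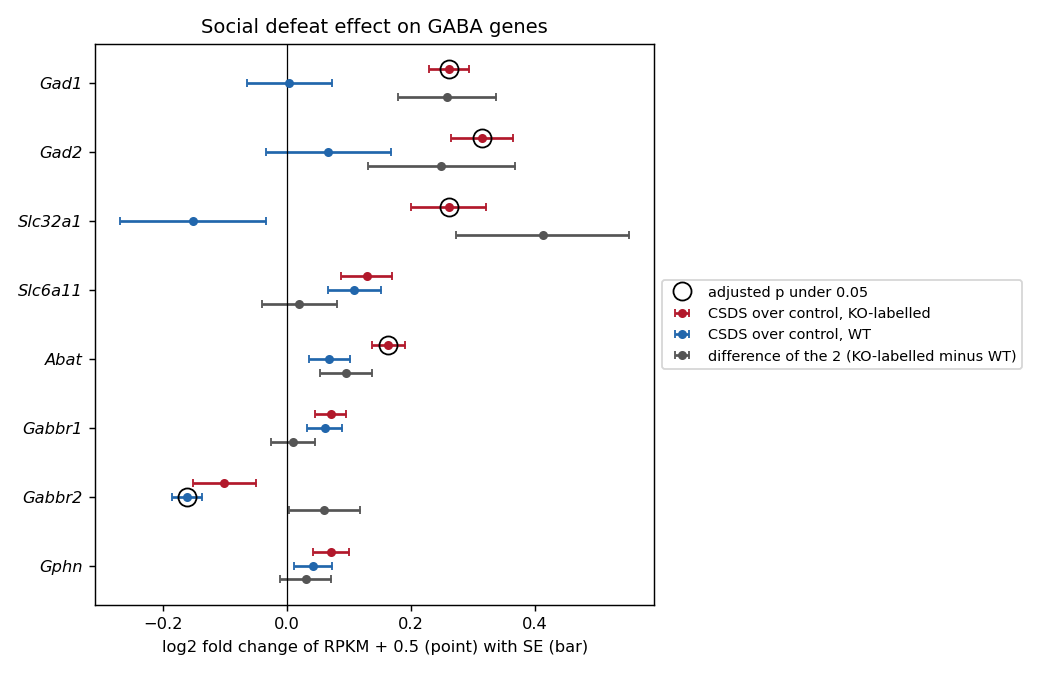
Log2 fold change of RPKM + 0.5, CSDS over control (horizontal axis), with its SE, for the 8 genes in KO-labelled libraries (red, top), in WT libraries (blue, middle) and as the difference of these effects (grey, bottom), with rings around values of adjusted p under 0.05. Rings surround Gad1, Gad2, Slc32a1 and Abat in KO-labelled libraries and Gabbr2 in WT, and no difference has one.

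Between genotypes at baseline, Gabbr2 alone of the 8 was called, and the call held under 12 of 22 alternatives. Its 39.0 to 47.5 RPKM in KO-labelled controls lay below the 47.9 to 52.2 RPKM of WT controls without overlap (−0.16 ± 0.040, adjusted p = 0.0343), where 3.95% of 18263 genes were called (2.45% higher and 1.50% lower) and 4.96% had groups with no overlap (3.19% higher and 1.77% lower). This call was lost in 5 of the 10 fits that left out 1 library (KO-labelled control 8 or WT control 6, 7, 8 or 9) and in a fit of these 2 groups alone (adjusted p = 0.18). It was also lost without a filter on low values (0.0516), with libraries centred on their median (0.0549), with the conflicting libraries placed by the treatment field (0.139) and with the replicate number as a block (0.141). Abat averaged 31.8 ± 0.915 RPKM in KO-labelled controls and 34.1 ± 0.866 RPKM in WT controls, with 4 of the 5 KO-labelled libraries under all WT libraries (−0.10 ± 0.029, adjusted p = 0.0606). Gad1 averaged 34.8 ± 1.13 RPKM in KO-labelled controls and 37.6 ± 4.05 RPKM in WT controls (−0.10 ± 0.056, adjusted p = 0.335). All 8 members had a fold change below 0 in this comparison, with a median of −0.09 beside 0.0076 over all genes, and the other 5 had adjusted p-values of 0.294 to 0.881. The same control libraries enter the difference of effects, so the signs in both comparisons are not independent.

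After defeat, 0 of 8 members passed between genotypes, where 2.24% of genes did (409 genes, with 2919 at an unadjusted p under 0.05). Gad1 in KO-labelled CSDS libraries nevertheless lay above every WT CSDS library, 40.1 to 43.7 against 35.0 to 39.8 RPKM, as 2.98% of genes tested did (0.15 ± 0.056, adjusted p = 0.168). Gabbr2 in KO-labelled CSDS libraries lay below every WT CSDS library, 40.5 to 43.2 against 44.4 to 45.3 RPKM, as 2.47% of genes did (−0.10 ± 0.041, adjusted p = 0.235). In a fit of the 2 defeated groups alone Gabbr2 passed (adjusted p = 0.0451). Slc32a1 averaged 21.5 ± 1.54 RPKM in KO-labelled CSDS and 17.5 ± 2.34 RPKM in WT CSDS libraries (0.30 ± 0.099, adjusted p = 0.134), and it passed without WT CSDS library 2 (0.37, adjusted p = 0.0393). Abat averaged 35.6 ± 0.774 RPKM in KO-labelled CSDS and 35.8 ± 1.62 RPKM in WT CSDS libraries (−0.0052, adjusted p = 0.955).

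Because the GABA-B receptor works as a pair, the ratio of its subunits was read within each library. Gabbr2 over Gabbr1 was 0.579 ± 0.019 in KO-labelled CSDS libraries, 0.653 ± 0.041 in KO-labelled controls, 0.604 ± 0.010 in WT CSDS and 0.705 ± 0.014 in WT controls. In WT the ranges were apart, 0.591 to 0.616 after CSDS and 0.691 to 0.724 in controls. In KO-labelled libraries they met at control 10, 0.548 to 0.599 after CSDS and 0.584 to 0.694 in controls. The ratio of the decarboxylases, Gad1 over Gad2, was 1.49 ± 0.080 in KO-labelled CSDS, 1.54 ± 0.026 in KO-labelled controls, 1.51 ± 0.11 in WT CSDS and 1.58 ± 0.22 in WT controls, with overlapping ranges throughout. A ratio shows unequal change of its genes and not which of them moved.

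Pooled over the groups, libraries with more Gad1 than their group mean also held more Slc32a1. Not every group showed this, since KO-labelled control 10 had the least Gad1 of its group (33.3 RPKM) and the most Slc32a1 (19.2 RPKM). Deviations of log2 values from the group mean were compared over the 20 libraries for 5 pairs of genes, by permutation within groups with p adjusted over the pairs. Gad1 and Slc32a1 had r = 0.807 (permutation p = 0.0013, adjusted 0.0063) and rho = 0.734 (permutation p = 0.0052, adjusted 0.026). Without WT controls 10 and 6, the libraries farthest from the median of Gad1, r was 0.72 (permutation p = 0.0079). Gad1 and Gad2 had r = 0.617 (permutation p = 0.035, adjusted 0.063) and rho = 0.647 (permutation p = 0.017, adjusted 0.042), and r = 0.579 without those libraries (permutation p = 0.062).

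The remaining pairs rested on few libraries or were weak. Gad2 and Slc32a1 had r = 0.544 (permutation p = 0.071, adjusted 0.089), and r = 0.221 without WT CSDS 2 and WT control 6. Gabbr1 and Gabbr2 had r = 0.534 (permutation p = 0.038, adjusted 0.063) and rho = 0.49 (permutation p = 0.054), and r = 0.401 without WT control 6 and KO-labelled control 7 (permutation p = 0.14). Slc6a11 and Abat had r = 0.223 (permutation p = 0.33). All values of a library share its dissection, RNA and depth.

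**Figure D3:**
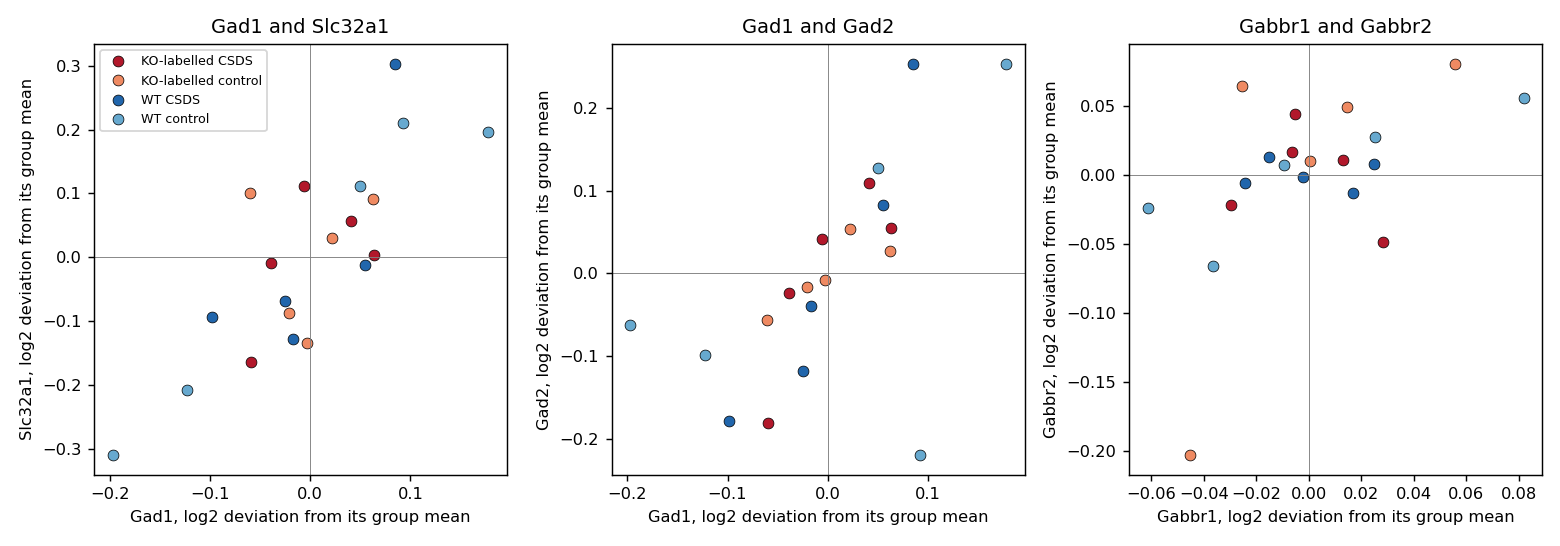
Deviation of log2(RPKM + 0.5) from the group mean in each of 20 libraries (points, coloured by group) for 3 pairs of genes, with the first gene on the horizontal axis and the second on the vertical. Gad1 and Slc32a1 rise together (r = 0.807), WT controls hold the extremes, and in the right panel KO-labelled control 10 lies lowest for Gabbr2.

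The genes whose deviations ran most like each member over the same 20 libraries are given as a description, the 3 nearest named genes for each. Gene models without a name were left out, and 1 such model lay nearer than some of the genes given for Slc32a1, Gad2 and Slc6a11. Those nearest to Slc32a1 were Dlx1 (r = 0.942) and Sox1 (r = 0.937), transcription factors of the developing forebrain, and the calcium channel subunit gene Cacna2d2 (r = 0.912). Nearest to Gad1 were Inpp5f (0.934), the muscarinic receptor gene Chrm2 (0.879) and Sorcs1 (0.87). Gad2 had lower likeness to any gene, with Dbndd2 (0.767), Tro (0.763) and Bcat1 (0.759) at the top. Gabbr2 ran with the neuronal splicing factor gene Nova2 (0.948), Glg1 (0.943) and Srgap3 (0.927), and Gabbr1 with Map4 (0.854), Adgrb3 (0.846) and Mllt3 (0.844). Slc6a11 ran with Prkar1b (0.879), Syt16 (0.865) and Dner (0.833), Abat with Csnk1g3 (0.781), Arg2 (0.754) and Thrb (0.739), and Gphn with Alg11 (0.846), Lrrn3 (0.841) and Ube2k (0.839). No member was among the 3 nearest of another member.

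Other genes of GABA metabolism went in either direction. Of 19 genes of uptake, breakdown and precursor supply, 3 rose and 3 fell in KO-labelled libraries after CSDS, with a median log2 fold change of 0.004, and 4 rose and 3 fell in WT, with a median of 0.04. The share of all genes called, for comparison with this and the following lists, was 6.17% higher and 8.88% lower in KO-labelled libraries, and 9.88% higher and 12.5% lower in WT. Got2, the mitochondrial aspartate aminotransferase gene, rose in KO-labelled libraries by 0.20 ± 0.036 (adjusted p = 0.00609) and in WT by 0.11 ± 0.025 (adjusted p = 0.0128). In WT, the glutamine transporter gene Slc38a5 rose by 0.53 ± 0.11 (adjusted p = 0.00899), and the serine synthesis gene Phgdh rose by 0.19 ± 0.041 (adjusted p = 0.0103). Aldh5a1, which acts after Abat in GABA breakdown, had fold changes of 0.03 and 0.01 (adjusted p of at least 0.536).

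Slc6a13 and Slc6a12, GABA transporters that are strongest in the meninges, fell in the same comparison as meningeal genes. Slc6a13 fell to 2.23 ± 0.758 RPKM in KO-labelled CSDS libraries, against 6.71 ± 2.55 RPKM in KO-labelled controls (−1.38 ± 0.25, adjusted p = 0.00602), and Slc6a12 fell to 0.372 ± 0.250 RPKM, against 1.45 ± 0.643 RPKM (−1.14 ± 0.23, adjusted p = 0.0102). Of 16 genes of meninges and choroid plexus, 7 fell and 0 rose in the same comparison, with a median of −0.56. Their summed level was 534.3 to 3779 RPKM in KO-labelled CSDS libraries (median 2650) and 632.3 to 4566 RPKM in KO-labelled controls (median 1733). The sum thus had a higher median after CSDS, unlike the genes called. In WT, 0 rose and 0 fell past the threshold, and all 16 had a fold change above 0, with a median of 0.55. The part of these cells in the fall of Slc6a13 and Slc6a12 was not tested.

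Partners and effectors of the GABA-B receptor were more often called lower than higher in WT. Of 24 such genes, 2 rose and 10 fell in WT after CSDS, with a median of −0.07, while 1 rose and 2 fell in KO-labelled libraries, with a median of −0.01. Kcnj6, a subunit of the potassium channel opened by the receptor, fell in WT to 5.21 ± 0.263 RPKM after CSDS, against 6.33 ± 0.449 RPKM in controls (−0.26 ± 0.050, adjusted p = 0.0058). In KO-labelled libraries Kcnj6 averaged 5.83 ± 0.319 RPKM after CSDS and 6.23 ± 1.32 RPKM in controls (adjusted p = 0.783). Kctd12, an auxiliary subunit that speeds desensitisation, fell in KO-labelled libraries (−0.18 ± 0.054, adjusted p = 0.044) and in WT (−0.18 ± 0.036, adjusted p = 0.0067), and Kctd16 had fold changes of 0.01 and −0.04. In WT the G protein regulator gene Rgs7 rose by 0.14 ± 0.026 (adjusted p = 0.00549), and its membrane anchor gene Rgs7bp fell by 0.21 (adjusted p = 0.00679). The G protein subunit gene Gnai1 fell in KO-labelled libraries by 0.16 (adjusted p = 0.0168) and in WT by 0.19 (adjusted p = 0.0078). Gng3, for another G protein subunit, rose in KO-labelled libraries by 0.20 ± 0.053 (adjusted p = 0.0302) and in WT by 0.16 ± 0.052 (adjusted p = 0.0464). The interaction term called 0 of the 24 genes.

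Genes of the inhibitory synapse scaffold mostly did not pass the test. Of 30 scaffold genes, 2 rose and 1 fell in KO-labelled libraries and 3 rose and 3 fell in WT, with medians of 0.01 in each. Dynll2, a dynein light chain that binds gephyrin, fell in KO-labelled libraries (−0.24 ± 0.037, adjusted p = 0.00283) and in WT (−0.20 ± 0.030, adjusted p = 0.00188). Trak2, a kinesin adaptor gene, rose in KO-labelled libraries (0.14 ± 0.036, adjusted p = 0.0247) and in WT (0.22 ± 0.037, adjusted p = 0.00287). Slc12a5, the chloride exporter that sets how inhibitory GABA is, fell in WT to 51.8 ± 1.20 RPKM after CSDS, against 59.1 ± 2.55 RPKM in controls (−0.19 ± 0.031, adjusted p = 0.00292). In KO-labelled libraries it averaged 54.6 ± 0.919 RPKM after CSDS and 55.5 ± 3.67 RPKM in controls (adjusted p = 0.77). Nlgn2, the adhesion molecule of inhibitory synapses, had fold changes of 0.07 in KO-labelled libraries and 0.01 in WT.

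**Figure D4:**
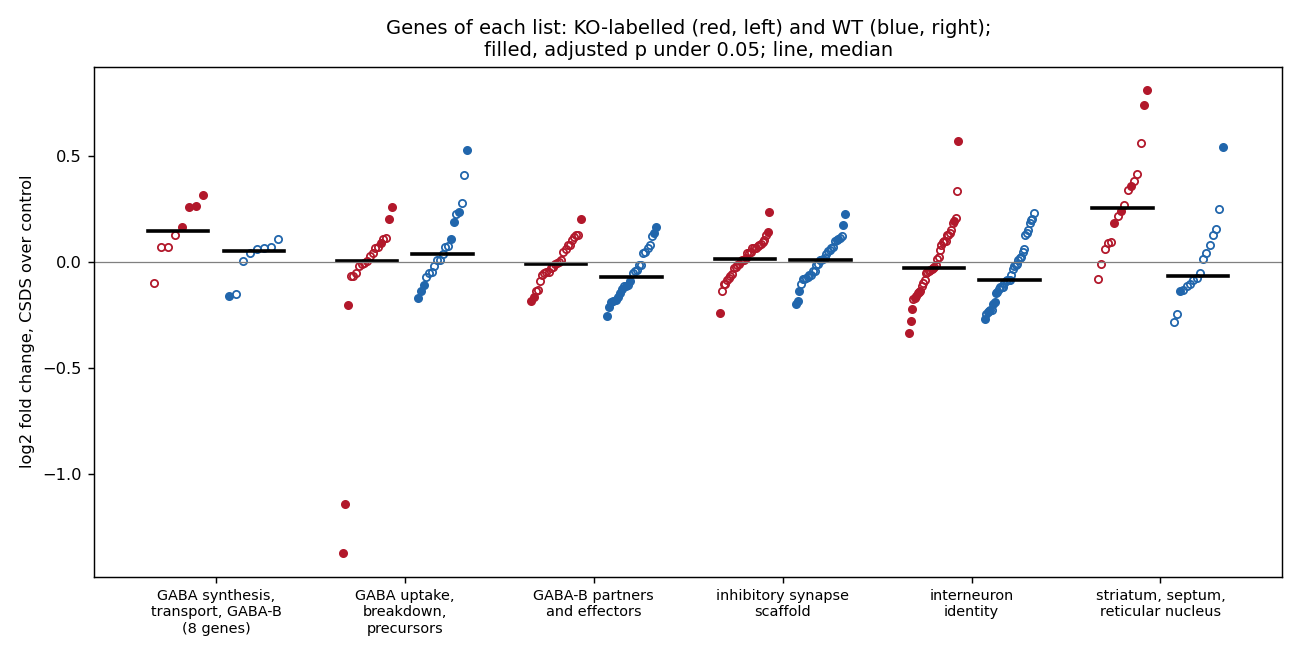
Log2 fold change, CSDS over control (vertical axis), of every tested gene in 6 lists, KO-labelled libraries in red at the left of each pair and WT libraries in blue at the right, with filled points at adjusted p under 0.05 and a line at the median. The 8 GABA genes have a median of 0.15 in KO-labelled and 0.05 in WT libraries, the GABA-B partners have 10 filled points below 0 in WT, and the list of striatum, septum and reticular nucleus has a median of 0.26 in KO-labelled libraries.

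Most genes listed for hippocampal interneurons did not pass the test. Of 36 tested, 2 rose and 5 fell in KO-labelled libraries after CSDS, with a median of −0.03, and 0 rose and 6 fell in WT, with a median of −0.09. Their summed level was 650.6 to 684.9 RPKM in KO-labelled CSDS libraries and 652.8 to 729.1 RPKM in KO-labelled controls. Sst and Cck held much of this sum, with Cck at 170.5 RPKM after CSDS and 193.5 RPKM in KO-labelled controls. The list also includes Prox1, read above as a marker of hippocampal granule cells. The sum is therefore not a measure of interneurons alone. Pvalb averaged 19.6 ± 4.74 RPKM after CSDS and 19.9 ± 0.968 RPKM in KO-labelled controls (adjusted p = 0.85), and Sst 212 ± 1.84 RPKM after CSDS and 205 ± 16.8 RPKM in controls (adjusted p = 0.501). Vip had a fold change of −0.03 in KO-labelled libraries (adjusted p = 0.847) and fell by 0.19 in WT (adjusted p = 0.0348). Nos1, for the neuronal nitric oxide synthase, fell in KO-labelled libraries (−0.33 ± 0.067, adjusted p = 0.0102) and in WT (−0.27 ± 0.054, adjusted p = 0.00652). Dlx6, a homeobox gene of GABA neurons, rose in KO-labelled libraries to 1.97 ± 0.394 RPKM, against 1.16 ± 0.216 RPKM in controls (0.57 ± 0.12, adjusted p = 0.0126). Npy, the other gene called higher there, averaged 43.5 ± 2.72 RPKM after CSDS and 38.1 ± 2.62 RPKM in controls. Dlx6os1, also on the list, was called lower in both genotypes, with 3.36 ± 0.140 RPKM after CSDS and 3.78 ± 0.197 RPKM in controls of the KO label.

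Some genes listed for GABA neurons of striatum, septum and thalamic reticular nucleus rose after CSDS in KO-labelled libraries, as Gad1, Gad2 and Slc32a1 did. Of 16 tested, 5 rose and 0 fell in KO-labelled libraries after CSDS, with a median of 0.26, and 1 rose and 1 fell in WT, with a median of −0.07. Zic1, a septal transcription factor gene, rose to 6.38 ± 1.57 RPKM after CSDS, against 3.45 ± 1.14 RPKM in KO-labelled controls (0.81 ± 0.20, adjusted p = 0.0232). Trpc4 rose by 0.19 ± 0.044 (adjusted p = 0.0198), Meis2 by 0.24 ± 0.067 (adjusted p = 0.0358), and the enkephalin gene Penk by 0.36 ± 0.10 (adjusted p = 0.0382). Penk was also the gene that rose in WT, by 0.54 ± 0.18 (adjusted p = 0.0488), where Gad1, Gad2 and Slc32a1 did not pass, and Pde10a fell there by 0.14 (adjusted p = 0.0314). The fifth, Ecel1, was chosen after its value was seen (0.74, adjusted p = 0.0391).

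The summed level of the 20 genes on this list was 81.5 to 93.5 RPKM in KO-labelled CSDS libraries and 67.2 to 83.2 RPKM in KO-labelled controls, overlapping through control 10. It was 76.7 to 110.3 RPKM in WT CSDS libraries, highest in library 2, which also had the most Gad1, Gad2 and Slc32a1 of its group, and 76.7 to 89.4 RPKM in WT controls. Ppp1r1b, Penk and Trpc4 held much of the sum, with means of 16.7, 15.05 and 15.0 RPKM in KO-labelled CSDS libraries. Penk and Trpc4 averaged at least 10.8 and 13.1 RPKM in every group, and whether hippocampal cells made this RNA was not tested. The striatal receptor genes Drd1 and Drd2 were low and not at 0, with group means of 1.29 to 1.59 RPKM and 0.860 to 1.35 RPKM. Among 9 genes tested of thalamus and habenula, 2 rose in KO-labelled libraries, Prkcd (0.59 ± 0.098, adjusted p = 0.00448) and Gpr151, and 1 fell, Nr4a2. The summed level of the 14 genes on that list was 52.2 to 69.2 RPKM in KO-labelled CSDS libraries (median 53.5). In KO-labelled controls it was 48.3 to 54.1 RPKM (median 51.8). The part of neighbouring regions in the rise of Gad1, Gad2 and Slc32a1 was not tested.

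**Figure D5:**
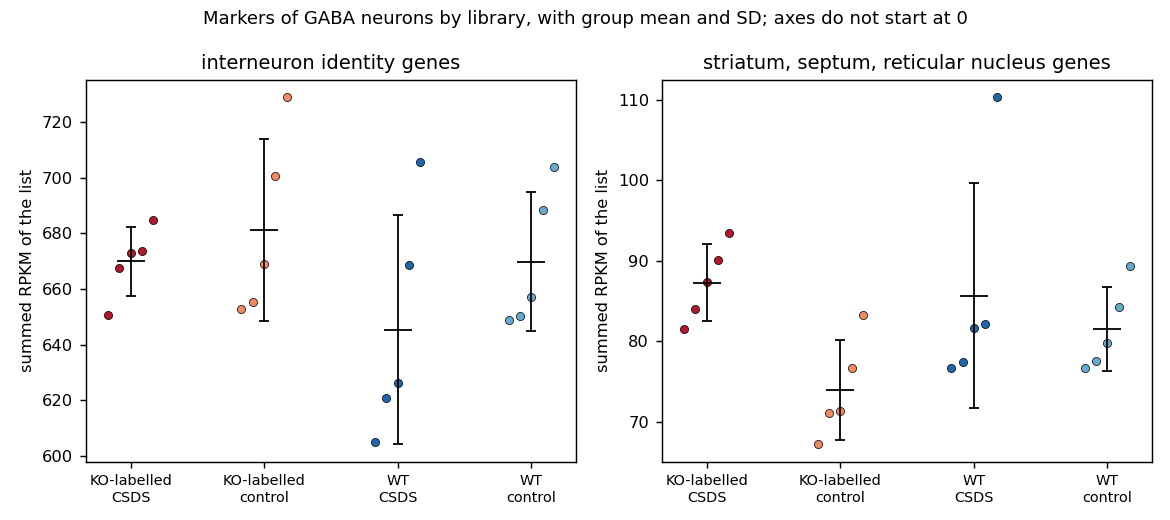
Summed RPKM (vertical axis, which does not start at 0) of 38 interneuron identity genes (left) and 20 genes of striatum, septum and reticular nucleus (right) in each library (points), with group mean and SD (n = 5). On the right the KO-labelled CSDS libraries lie above 4 of the 5 KO-labelled controls, and WT CSDS library 2 is highest at 110.3 RPKM. A few abundant genes hold much of each sum.

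Astrocyte genes, among which Slc6a11 is usually counted, went in either direction. Of 23, 4 rose and 3 fell in KO-labelled libraries after CSDS, with a median of 0.04, and 8 rose and 1 fell in WT, with a median of 0.12. The gap junction genes Gjb6 (−0.55 ± 0.099, adjusted p = 0.0065) and Gja1 (−0.24 ± 0.047, adjusted p = 0.00873) and the water channel gene Aqp4 (−0.33 ± 0.070, adjusted p = 0.0121) fell in KO-labelled libraries, while Acsbg1 rose by 0.17 ± 0.038 (adjusted p = 0.0163). Aqp4 fell in WT too, by 0.14 (adjusted p = 0.0148), and Acsbg1 rose there by 0.14 ± 0.041 (adjusted p = 0.0329). Also in WT, Ntsr2 rose by 0.27 ± 0.042 (adjusted p = 0.00218), Aldh1l1 by 0.26 ± 0.042 (adjusted p = 0.00241) and Gpr37l1 by 0.28 ± 0.049 (adjusted p = 0.0034). Among 20 genes of excitatory neurons, 2 rose and 1 fell in KO-labelled libraries, and 1 rose and 1 fell in WT. Of 14 immediate early genes, which neurons switch on with activity, 7 fell and 0 rose in KO-labelled libraries and 11 fell and 0 rose in WT. Structural RNAs, which poly(A) libraries hold little of, fell in 4 of 7 cases in KO-labelled libraries and 7 of 7 in WT, with medians of −1.26 and −1.14. The part of RNA quality in the results above was not tested.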

How the data were processed

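Poly(A) RNA of mouse hippocampus was sequenced in 23 libraries, with single-end reads and a kit that does not keep strand, per the labels' protocols. Reads were aligned with STAR to mm10, per the submitters' processing notes, and neither the version of STAR nor the annotation or counting method is stated there. The authors deposited 1 table per genotype with RPKM for 39017 genes in every library, along with log2 fold changes (control over CSDS), a likelihood ratio score, a p-value and a false discovery rate from edgeR, per the file headers. The deposited mean log2 abundance was identical in both tables for all 17840 genes that had one, so levels were set side by side across the tables. RPKM is relative, so a change in a few abundant RNAs shifts all other genes. The top 10 genes held 19.3 to 23.4% of each library's RPKM.

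Depth was estimated from 11982 single-exon genes, whose low RPKM values are whole multiples of what 1 read is worth, and 94.0 to 95.4% of the values used came within 0.05 of a whole read. Values were tested as log2(RPKM + 0.5), which understates the change of low genes, in genes whose mean over the fitted libraries reached 0.5 RPKM. Tests used limma 3.58.1 with trend in R 4.3.3, two-sided, with Benjamini-Hochberg adjustment over all genes and a threshold of 0.05. CSDS was compared with control within each table, and genotypes and the difference of effects in 1 fit over the 4 groups. The comparisons reuse libraries and are not independent. The fits were tested on simulated data. Pairs of genes were tested with 100000 permutations within groups in Python 3.11.15 with scipy 1.17.1.

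The 8 genes and the lists beside them were chosen with earlier results of these data known, so a call among them is a description and not independent evidence. Named genes are the 8, Nrsn2, from each list at most the 4 called genes of smallest p, and Slc6a13, Aldh5a1, Kctd12, Kctd16, Nlgn2, Slc12a5, Pvalb, Sst and Vip, and some genes that this rule names are not reported here. Likeness used Pearson correlation of deviations from group means for genes of mean RPKM at least 1. Alternatives were other pseudocounts, filters, scalings and fits, libraries left out in turn, and the libraries of conflicting label assigned by either field. Of the list genes, Marchf1, Nlgn4l, Insyn2 and Insyn2a were not matched by symbol. Promoters are RefSeq sequences of GRCm38.p6.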

Additional observations from a re-analysis of the deposited data

Results flagged for a closer look

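Of the 32 combinations of a gene (the 8) and a group of 5 libraries, 2 held a library far from the others, with a gap to its nearest neighbour above 0.71 of the group's range. Chance alone gives such a gap in about 1 of 20 groups. Slc32a1 stood at 21.6 RPKM in WT CSDS library 2, against 15.9 to 17.2 RPKM in the other 4 WT CSDS libraries. That library also had the highest summed level of the genes listed for striatum, septum and reticular nucleus, 110.3 RPKM, against 76.7 to 82.2 RPKM in the other 4. Gabbr2 stood at 39.0 RPKM in KO-labelled control 10, against 45.3 to 47.5 RPKM in the other 4 KO-labelled controls. That library had the female pattern of Xist (48.2 RPKM) and Ddx3y (0.50 RPKM), while WT control 10, with the same pattern, had 47.9 RPKM of Gabbr2, the lowest of the WT controls. The part of neighbouring tissue and of sex in these values was not tested.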

How the results depend on the processing

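Of 920 alternative values of the 8 genes, 875 kept their direction and side of the threshold, 14 came past it and 16 dropped below it. The other 15, from 5 results, changed sign and passed neither as reported nor under the alternative, and 0 called values changed direction. In the comparisons of CSDS with control, the label of the 3 conflicting libraries moved the counts most. With those libraries as CSDS, 1240 genes and 0 of the 8 were called in WT, 143 and 0 in KO-labelled libraries, 399 and 0 between control genotypes, and 1 gene for the difference of effects. With them as controls, 1627 genes and 2 of the 8 (Abat and Gabbr2) were called between control genotypes and 98 genes for the difference of effects. Between control genotypes, 480 genes were called after centring on the median and 209 with the 2 groups alone, and 0 of the 8 under either setting and without a filter on low values. Leaving out control 10 of each genotype gave 629 genes and 1 of the 8 (Gabbr2) between defeated genotypes and 181 genes for the difference of effects, and the 2 defeated groups alone also called 1 of the 8.

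Leaving out 1 library gave 1658 to 3668 genes and 4 to 5 of the 8 in KO-labelled libraries, with the lowest count without CSDS 4. In WT it gave 3077 to 4016 genes and 1 to 3 of the 8. It gave 368 to 890 genes and 0 to 2 of the 8 between control genotypes, 245 to 474 and 0 to 1 between defeated genotypes, and 16 to 244 and 0 to 1 for the difference of effects, highest without WT control 10. The cause was not tested.

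Library numbers are shared between genotypes, but libraries of the same number deviated together in only 3 of 10 pairs (r above 0.1, range −0.112 to 0.423), and 4 of 10 WT libraries matched their own number best. With the replicate number as a block, 45 genes and 0 of the 8 were called between control genotypes, 162 and 0 between defeated genotypes, and 23 and 0 for the difference of effects. Slc32a1 and Gphn had the fewest reads of the 8. Their coefficients of variation within groups were 7.16 to 16.6% for Slc32a1 and 2.66 to 3.77% for Gphn, and the part of depth in either was not tested.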

Other observations

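The 3 libraries whose title and treatment field conflict were read one by one. KO-labelled 11 and 10B had 35.2 and 35.4 RPKM of Gad1, 23.3 and 23.1 RPKM of Gad2, 19.1 and 19.8 RPKM of Slc32a1, and 30.6 and 31.4 RPKM of Abat. Their Gabbr2 stood at 47.6 and 47.2 RPKM, Gabbr1 at 73.0 and 73.8 RPKM, Slc6a11 at 29.1 and 30.3 RPKM and Gphn at 21.5 and 21.6 RPKM. Xist in these libraries was 1.60 and 1.45 RPKM, beside 9.99 and 8.75 RPKM of Ddx3y, whereas the grouped libraries had either at most 0.06 or at least 48.2 RPKM of Xist. WT 9B had 38.5 RPKM of Gad1, 26.3 of Gad2, 19.2 of Slc32a1, 32.6 of Slc6a11, 34.9 of Abat, 74.5 of Gabbr1, 51.6 of Gabbr2 and 21.9 of Gphn.

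Between genotypes, some genes of the lists beside the 8 were called, and not all are named here. In KO-labelled controls, 3 of 20 excitatory neuron genes (Itpka, Bok and C1ql2) were called higher and 2 of 14 immediate early genes (Fosb and Fosl2) lower. Of all genes tested, 2.45% were called higher and 1.50% lower among controls, and 1.51% higher and 0.734% lower after CSDS. Gng3 was lower in KO-labelled than in WT libraries both among controls (50.3 ± 3.81 and 61.6 ± 4.21 RPKM) and after CSDS (57.8 ± 2.82 and 69.0 ± 3.96 RPKM). Pdxk, which activates pyridoxal, was lower in KO-labelled controls, the interneuron genes Crhbp and Tac1 were higher there, and Crhbp was also higher after CSDS. The difference of effects called 0 genes in every list.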
